A study of Macaca fascicularis with 6 samples.

Results

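The genes described here are 10 coat proteins and lipolysis genes of the lipid droplet: the perilipins PLIN2, PLIN3, PLIN4 and PLIN5, the CIDE proteins CIDEB and CIDEC, the patatin-like proteins PNPLA2 and PNPLA3, the droplet enzyme HSD17B13 and the lipase inhibitor G0S2. They were taken as every probe set whose only annotated symbol was one of these names, which gave 17 of the 54675 probe sets, for 9 of the 10 genes. HSD17B13 was not analysed here. Lipid droplets are stores of triglyceride and cholesterol ester wrapped in a phospholipid layer, and in the liver they take up fat that is not burned or exported in lipoproteins. Perilipins coat the droplet and set how far lipases can reach the fat inside, CIDE proteins exchange and fuse droplets, and lipolysis begins with a lipase of the patatin-like family that an inhibitor protein holds back.

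Liver RNA of 6 cynomolgus macaques (Macaca fascicularis) had been read on Affymetrix arrays, with 1 animal on each array. In 3 animals an LXR ligand had been given, and the other 3 had received vehicle. LXR, the liver X receptor, is activated by oxysterols and drives the expression of genes for cholesterol efflux and lipogenesis, and the comparison asks whether droplet genes differ in livers exposed to its ligand. The ligand arrays carry the letters GW in their titles, and the identity, dose and duration of the ligand, the age and sex of the animals and their diet are not given in the sources used here.

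Values are MAS5 signals, intensities in arbitrary units, read by human probes, so a macaque transcript can be read weakly where its sequence differs. Median signals were 129 to 139 on the ligand arrays and 111 to 139 on the vehicle arrays. The 9 hepatocyte markers with a probe set, among them albumin, were all tested, with a summed signal of 625830 to 651290 on ligand arrays and 559220 to 673230 on vehicle arrays. ACTB probe sets at the 3' end were 6.16 to 16.04 times as bright as those at the 5' end on ligand arrays and 4.45 to 8.34 times on vehicle arrays, with the highest ratio on ligand array 3. Ligand array 1 stood apart on the first principal component, at -89.8, against 0.632 to 36.8 on the other 5 arrays. Differences between the groups are given as ligand minus vehicle on the scale of log2(signal + 16) and were tested with limma, a linear model with spread shared across probe sets, with p adjusted over all probe sets tested. Among genes known to answer to the receptor, SREBF1, a transcription factor of fatty acid synthesis, averaged 2855 ± 1369 on ligand arrays and 429 ± 104 on vehicle arrays (SD, n = 3 each), and ABCG1, a cholesterol transporter, 866 ± 105 on ligand arrays and 338 ± 36.3 on vehicle arrays (SD, n = 3 each), although neither passed limma's test, at adjusted p = 0.370 and 0.387. A further SREBF1 probe set read 252 ± 158 on ligand arrays and 327 ± 48.8 on vehicle arrays (SD, n = 3 each), and the other 3 of ABCG1 had log2 differences of 1.39, 0.52 and 0.043.

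None of the droplet genes tested passed, and on none of their probe sets did the ligand arrays separate from the vehicle arrays. Of the 17 probe sets, 11 were bright enough to be tested, for 8 genes: PLIN2 to PLIN5, CIDEB, CIDEC, PNPLA2 and G0S2. At the brightest probe set of each gene, 2 genes were higher on average with the ligand (PLIN2 and PLIN4) and 6 lower, while over all tested probe sets 50.3% were higher. The median log2 difference of the 8 genes was -0.19, against 0.0032 over all tested probe sets. In limma, 0 of the 8 genes passed at an adjusted p under 0.05 and 0 had an unadjusted p under 0.05, where 0% and 5.58% of all 27304 tested probe sets did. Groups did not overlap in 0 of the 8 genes, and in 11.0% of all tested probe sets. The adjusted p of the 11 probe sets ran from 0.895 to 0.996. The median of the 8 genes was -0.45 without ligand array 1, and -0.030 without ligand array 3 or without vehicle array 2.

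**Figure D1:**
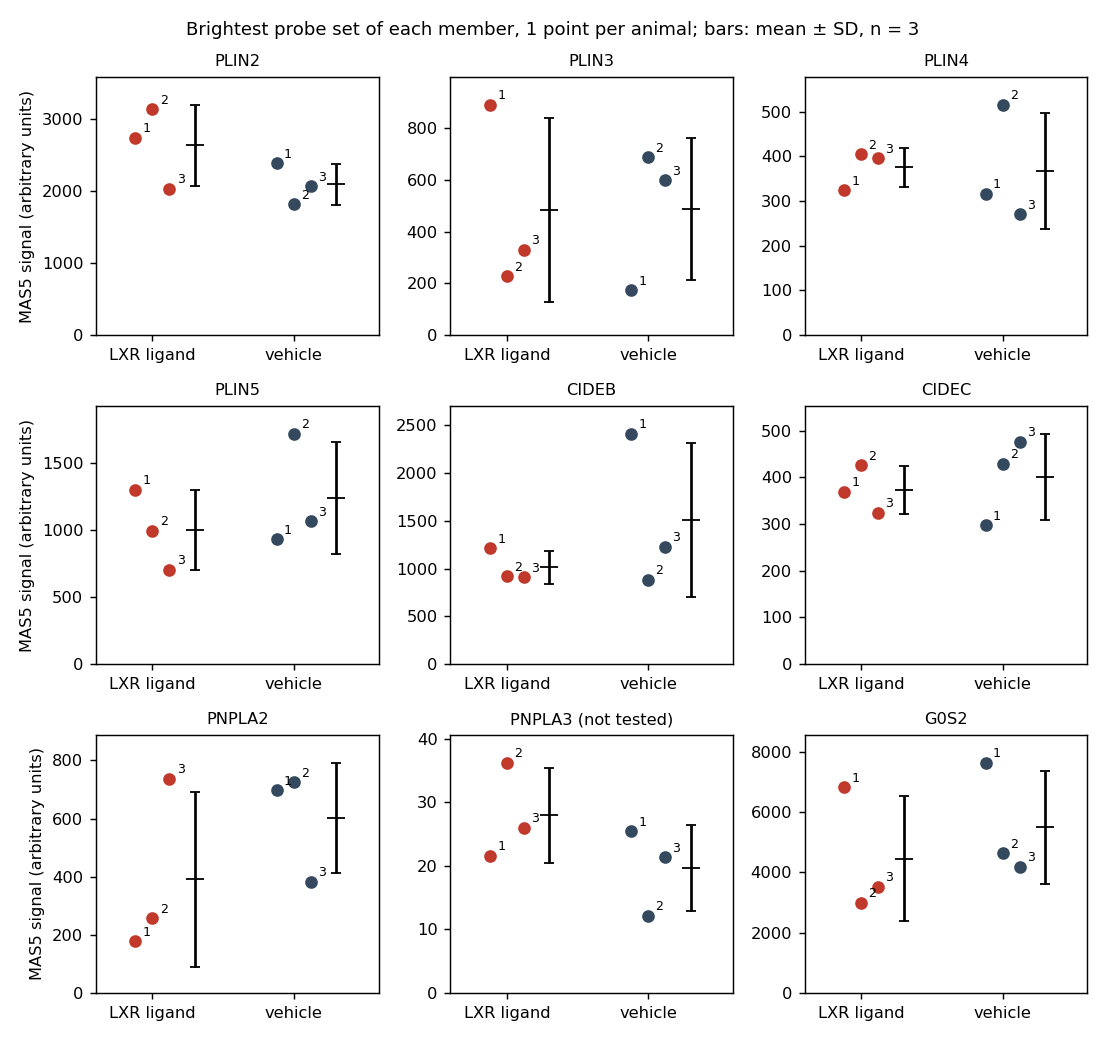
MAS5 signal in arbitrary units on a linear axis that starts at 0, for the brightest probe set of 9 genes; each point is 1 animal with its array number, ligand arrays on the left, and bars give mean ± SD (n = 3). In every panel at least 1 ligand array lies within the range of the vehicle arrays, or the reverse, so the groups overlap.

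PLIN2 is the main perilipin of the hepatocyte and accumulates as the cell stores fat. On its brightest probe set (209122_at) the signal was 2738, 3136 and 2028 on ligand arrays 1 to 3, against 2387, 1816 and 2069 on vehicle arrays 1 to 3. Ligand arrays 1 and 2 lay above every vehicle array, while ligand array 3 lay between vehicle arrays 2 and 3. The mean was 2634 ± 561 on ligand arrays and 2091 ± 286 on vehicle arrays (SD, n = 3 each), a log2 difference of 0.32 ± 0.23 (SE) with limma adjusted p = 0.909. Its 95% interval ran from -0.19 to 0.82, so a signal up to 1.77-fold higher or 1.14-fold lower with the ligand lies within the error. PLIN2 had the smallest spread between animals of the 8 genes, with an SD of 0.26 on the log2 scale within groups. The median SD was 0.40 over all tested probe sets and 0.22 over the 9 hepatocyte markers.

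The other PLIN2 probe set (215895_x_at) pointed the other way. Its signal was 161, 188 and 40.4 on ligand arrays and 271, 336 and 71.6 on vehicle arrays, with a log2 difference of -0.71 ± 0.69 (SE; limma adjusted p = 0.937). The lowest array of each group was array 3. The suffix x marks a probe set whose probes can also bind other transcripts. When the 2 probe sets were averaged, the log2 difference of PLIN2 was -0.20, opposite in sign to that of the brighter probe set alone.

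PLIN3 is a perilipin found both free in the cytosol and on small new droplets. Its signal (202122_s_at) was 890, 228 and 330 on ligand arrays, against 173, 686 and 599 on vehicle arrays. The highest value was on a ligand array and the lowest on a vehicle array, and the vehicle range covered 2 of the 3 ligand arrays. Means were nearly equal, at 482 ± 356 on ligand arrays and 486 ± 274 on vehicle arrays (SD, n = 3 each). The log2 difference was -0.032 ± 0.57 (SE; limma adjusted p = 0.996), and its 95% interval, from -1.31 to 1.24, leaves room for a signal 2.37-fold higher or 2.48-fold lower. PLIN3 varied 5.14-fold across the 6 animals and its SD within groups, 1.01 on the log2 scale, was the largest among the brightest probe sets of the 8 genes. Leaving out single arrays gave log2 differences of -0.63 to 0.37.

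PLIN4, a perilipin known mainly from adipocytes and muscle, gave signals of 325, 406 and 395 on ligand arrays and 316, 516 and 271 on vehicle arrays (228409_at). All 3 ligand arrays lay inside the vehicle range. The log2 difference was 0.073 ± 0.32 (SE), at limma adjusted p = 0.984, with a 95% interval from -0.63 to 0.78. In the macaque annotation of assembly T2T-MFA8v1.1, used for names and neighbours only, PLIN4 and PLIN5 are adjacent protein-coding genes, and PLIN3 lies on the same chromosome with 9 coding genes between it and PLIN4.

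PLIN5 is the perilipin of tissues that burn much fat, where it binds PNPLA2 and its coactivator and brings droplets close to mitochondria. On the brightest of its 6 probe sets (1568667_s_at) the signal was 1301, 993 and 704 on ligand arrays, against 930, 1717 and 1066 on vehicle arrays. Vehicle array 2 was the highest and ligand array 3 the lowest, and ligand arrays 1 and 2 fell inside the vehicle range. The mean was 999 ± 298 on ligand arrays and 1238 ± 421 on vehicle arrays (SD, n = 3 each), a log2 difference of -0.30 ± 0.31 (SE; limma adjusted p = 0.941). The 95% interval ran from -0.98 to 0.39. Without vehicle array 2 the log2 difference was -0.039, and without ligand array 1 it was -0.51.

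The 6 PLIN5 probe sets did not move alike. The 2 others that were tested had log2 differences of -0.094 ± 0.27 (241368_at) and -0.56 ± 0.61 (1568666_at; both SE), at limma adjusted p = 0.978 and 0.943. All 3 tested probe sets read highest on vehicle array 2. On 241368_at the ligand arrays were close together, at 577, 574 and 627, within the vehicle values of 477, 831 and 639. Of the 3 probe sets too dim to be tested, 1560457_x_at had a log2 difference of -1.03, 238019_at of 0.53 and 1560456_at of 0.28. The dimmest, 1560456_at, ran from 22.2 to 290 on ligand arrays and from 21.3 to 171 on vehicle arrays, a 13.6-fold range over the 6 animals. Array 3 held the highest value of each group. The mean of this probe set was 98.0, under the minimum for testing, a mean of 129 over the 6 arrays.

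**Figure D2:**
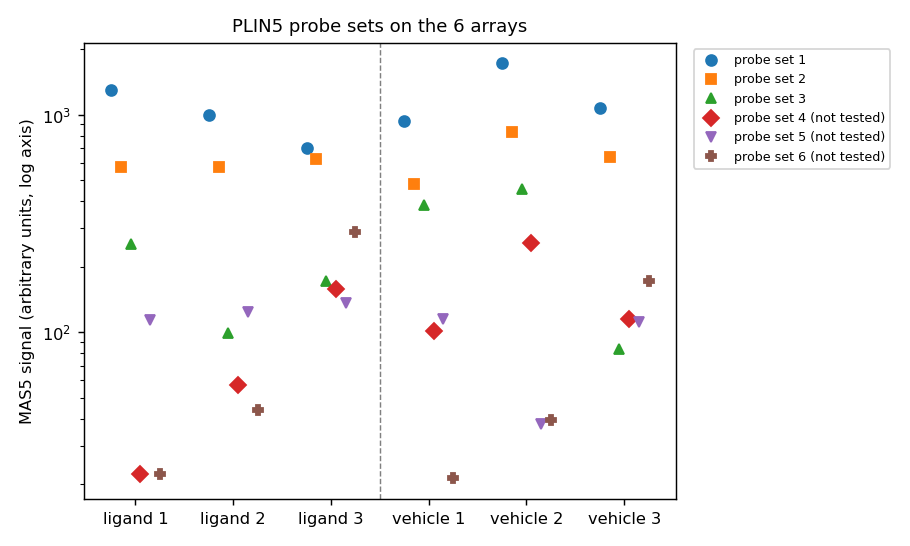
MAS5 signal in arbitrary units, on a log axis, of the 6 PLIN5 probe sets on each array, numbered from the brightest; ligand arrays stand left of the dashed line and vehicle arrays right of it. The 3 tested probe sets are highest on vehicle array 2, while the dimmest, probe set 6, is highest on ligand array 3.

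The CIDE proteins sit where droplets touch. CIDEB, the form of the hepatocyte, takes part in droplet fusion and in loading lipid onto very-low-density lipoproteins. Its signal (221188_s_at) was 1215, 918 and 910 on ligand arrays, against 2413, 882 and 1228 on vehicle arrays. A single animal, vehicle array 1, stood far above the other 5. The mean was 1014 ± 174 on ligand arrays and 1508 ± 803 on vehicle arrays (SD, n = 3 each), a log2 difference of -0.45 ± 0.34 (SE; limma adjusted p = 0.918) with a 95% interval from -1.21 to 0.31. Without vehicle array 1 the difference was -0.050, and without vehicle array 2 it was -0.77.

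CIDEC, which drives the growth of large droplets in adipocytes and is known from fatty liver, gave 369, 426 and 325 on ligand arrays and 297, 429 and 476 on vehicle arrays (219398_at). Every ligand array lay inside the vehicle range. The log2 difference was -0.081 ± 0.29 (SE; limma adjusted p = 0.981), and the 95% interval from -0.73 to 0.57 covers signals up to 1.49-fold higher and 1.66-fold lower with the ligand. Adipose tissue also expresses PLIN4, CIDEC, PNPLA2 and G0S2. Of the 7 adipocyte markers examined, ADIPOQ, LEP, PLIN1 and TRARG1 were under the minimum for testing. ADIPOQ, which encodes the adipocyte hormone adiponectin, read 4.46 to 6.66 on ligand arrays and 9.51 to 54.9 on vehicle arrays, and the summed signal of the 7 markers was 1131 to 1381 on ligand arrays and 887 to 1069 on vehicle arrays. FABP4 alone read 625 to 917 on ligand arrays and 395 to 827 on vehicle arrays. LIPE, also in that sum, read 171 to 326 on ligand arrays and 39.9 to 266 on vehicle arrays. The markers FABP4, CIDEA and LIPE were bright enough to be tested, and none of them passed. Their log2 differences were 0.36, 0.25 and 1.30, and on the other probe set of LIPE the difference was 0.071. Among the dim markers, PLIN1 was also higher on average with the ligand, while ADIPOQ, LEP and TRARG1 were lower. PLIN1, CIDEA and LIPE also stand in the further lists of droplet and lipase genes.

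PNPLA2, also called adipose triglyceride lipase, makes the first cut in stored triglyceride. Its tested probe set (39854_r_at) read 178, 257 and 736 on ligand arrays, against 697, 726 and 382 on vehicle arrays. Ligand arrays 1 and 2 were below every vehicle array, while ligand array 3, the array with the highest 3' to 5' ratio of ACTB, was the highest of all 6; the part of RNA quality in this was not tested. The mean was 391 ± 302 on ligand arrays and 602 ± 191 on vehicle arrays (SD, n = 3 each). The log2 difference, -0.80 ± 0.48 (SE), was the largest in size of the 8 genes, at limma adjusted p = 0.895. Its 95% interval ran from -1.86 to 0.26, or from 3.64-fold lower to 1.20-fold higher.

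The size of the PNPLA2 difference depended on single animals, while its sign stayed negative whichever array was left out. Without ligand array 3 the log2 difference was -1.37, at unadjusted p = 0.00588 and adjusted p = 0.897 in limma, and without ligand array 1 it was -0.39. The other PNPLA2 probe set (212705_x_at), too dim to be tested, read 68.7, 34.5 and 128 on ligand arrays and 45.8, 77.8 and 42.6 on vehicle arrays, with a log2 difference of 0.29. It too was highest on ligand array 3.

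G0S2, a small protein that binds PNPLA2 and blocks it, was read at 6826, 2997 and 3524 on ligand arrays, against 7644, 4641 and 4193 on vehicle arrays (213524_s_at). Ligand arrays 2 and 3 were below every vehicle array, and ligand array 1 was second only to vehicle array 1. The mean was 4449 ± 2076 on ligand arrays and 5493 ± 1876 on vehicle arrays (SD, n = 3 each), a log2 difference of -0.35 ± 0.33 (SE; limma adjusted p = 0.937). The 95% interval ran from -1.08 to 0.38. Without ligand array 1 the difference was -0.70, and without vehicle array 1 it was -0.083. On the log2 scale, G0S2 and PNPLA2 lay to the same side of their own means on 3 of the 6 arrays, at -0.65 and -0.72 on ligand array 2, 0.70 and 0.66 on vehicle array 1, and -0.16 and -0.18 on vehicle array 3. On the other 3 arrays they lay to opposite sides, farthest apart on ligand array 1, where G0S2 was 0.54 above its mean and PNPLA2 was at -1.22.

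PNPLA3 encodes a droplet protein of the hepatocyte whose gene is known in humans as a target of SREBP-1c, the product of SREBF1. Both of its probe sets were under the minimum for testing. The brighter (220675_s_at) read 21.6, 36.2 and 26.0 on ligand arrays and 25.5, 12.2 and 21.4 on vehicle arrays, and the dimmer (233030_at) 23.1, 17.2 and 9.35 on ligand arrays and 15.0, 20.2 and 15.8 on vehicle arrays. Groups overlapped on each. When all 54613 probe sets other than controls were tested, their log2 differences were 0.30 ± 0.42 and -0.040 ± 0.37 (SE), at limma adjusted p = 0.979 and 0.997. At values this low an absent transcript and a weakly read one cannot be told apart, and a change in PNPLA3 was not detectable here.

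**Figure D3:**
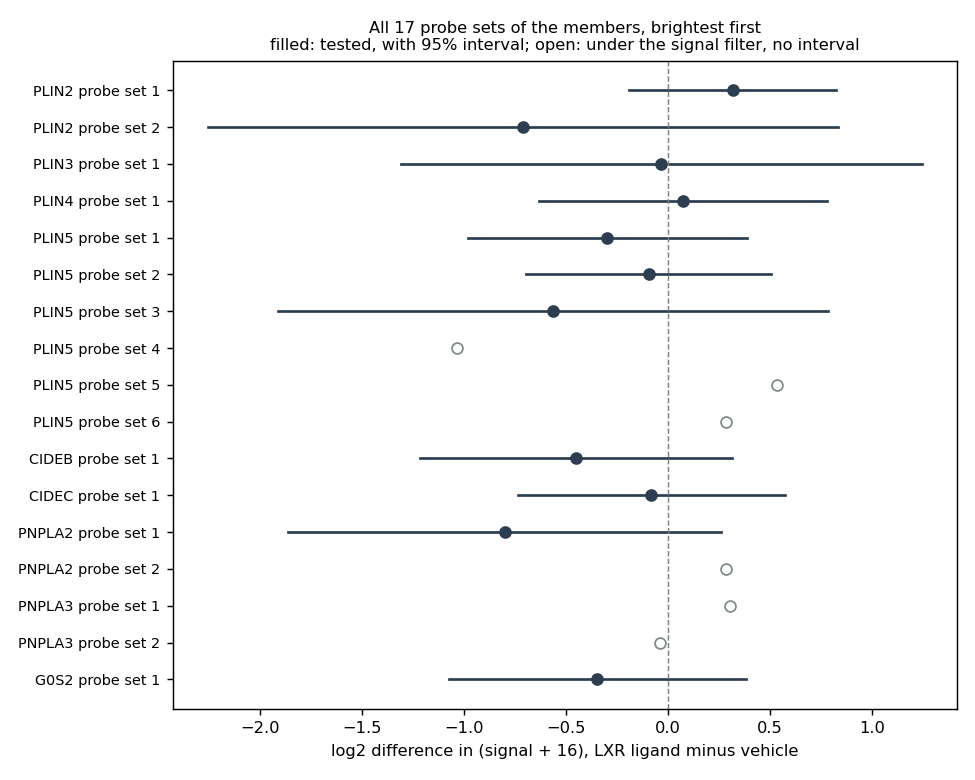
Log2 difference of signal + 16, ligand minus vehicle, for the 17 probe sets, numbered from the brightest within each gene; lines are 95% intervals from limma for the 11 tested probe sets, and open points are the 6 too dim to be tested. Every interval includes 0, and PNPLA2 probe set 1 lies farthest below 0 among the brightest probe sets.

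The 8 tested genes did not share a pattern over the animals. Each of the 6 arrays held the highest signal of at least 1 gene and the lowest of at least 1. On ligand array 1, 5 of the 8 genes were above their own mean over the arrays, on ligand array 2 it was 3 and on ligand array 3 it was 2, against 4, 5 and 3 on vehicle arrays 1 to 3. The median deviation of the 8 genes was 0.14, -0.23 and -0.27 on ligand arrays 1 to 3 and -0.076, 0.32 and -0.088 on vehicle arrays 1 to 3, 2 ranges that overlap. The SD within groups also set the genes apart, from 0.26 for PLIN2 and 0.28 for CIDEC to 0.80 for PNPLA2 and 1.01 for PLIN3.

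**Figure D4:**
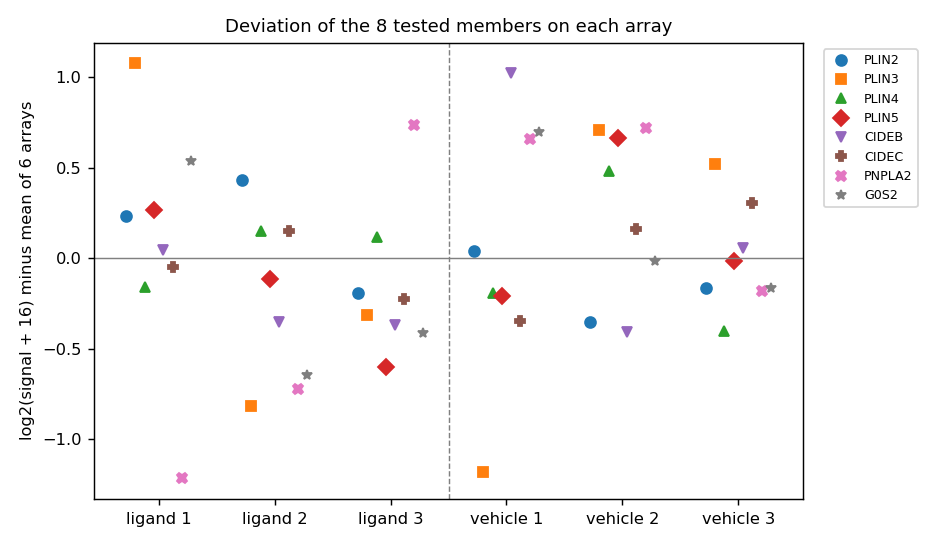
Deviation of log2(signal + 16) from each gene's mean over the 6 arrays, for the brightest probe set of the 8 tested genes; ligand arrays stand left of the dashed line and vehicle arrays right of it. Genes scatter to both sides of 0 on every array, from -1.22 (PNPLA2 on ligand array 1) to 1.08 (PLIN3 on ligand array 1).

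No probe set on the arrays passed in limma, 0% of the 27304 tested, and this holds for other proteins of the droplet too. Of 19 further droplet genes listed, 16 were tested. On average 7 were higher with the ligand and 9 lower, where 50.3% of all tested probe sets were higher. In limma 0 of the 16 passed and 1 had an unadjusted p under 0.05, against 0% and 5.58% of all tested probe sets. Their median log2 difference was -0.0098, against 0.0032 over all tested probe sets. RAB18, a small GTPase on the droplet surface, had that smallest p, with signals of 3343, 4444 and 3625 on ligand arrays and 5497, 5812 and 4336 on vehicle arrays, a log2 difference of -0.45 ± 0.20 (SE) and limma adjusted p = 0.880. Its groups overlapped only in that ligand array 2 was above vehicle array 3. On the remaining 3 RAB18 probe sets that were tested the difference was -0.14, -0.057 and -0.013. Those too dim to be tested pointed the other way, at 0.83 (243496_at) and 0.95 (229398_at). On 229398_at the groups did not overlap, at 60.0 to 68.9 on ligand arrays and 15.6 to 41.8 on vehicle arrays.

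LDAF1, a partner of seipin where droplets form, was the single gene of the 16 whose groups did not overlap at the brightest probe set, against 11.0% of all tested probe sets. It read 258, 357 and 358 on ligand arrays and 212, 152 and 209 on vehicle arrays, a log2 difference of 0.72 ± 0.34 (SE; limma adjusted p = 0.880). FITM1, a membrane protein that helps package triglyceride into droplets, had a log2 difference of -0.69 ± 0.34 (SE) at the same adjusted p in limma. HSD17B11, a droplet enzyme related to HSD17B13, read 4802, 8264 and 5103 on ligand arrays and 4692, 2904 and 5005 on vehicle arrays, a log2 difference of 0.52 ± 0.28 (SE), also at limma adjusted p = 0.880. Ligand array 2 carried the high value of HSD17B11, while ligand array 1 fell inside the vehicle range and ligand array 3 just above it.

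Of 14 further lipases and regulators of lipolysis, 12 were tested. On average 8 were higher with the ligand and 4 lower, where 50.3% of all tested probe sets were higher. In limma 0 of the 12 passed, against 0% of all tested probe sets. At the brightest probe set of each gene, an unadjusted p under 0.05 in limma was found for 2 of the 12, LIPA and MGLL. These were also the 2 whose groups did not overlap there, against 5.58% and 11.0% of all tested probe sets. The list's median log2 difference was 0.15, or 0.043 without vehicle array 3 and 0.29 without vehicle array 1.

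LIPA encodes lysosomal acid lipase, which breaks down cholesterol ester and triglyceride delivered to lysosomes. It read 2401, 4189 and 2176 on ligand arrays and 2000, 1453 and 1863 on vehicle arrays, a log2 difference of 0.67 ± 0.27 (SE, limma adjusted p = 0.874). A further LIPA probe set (236156_at), too dim to be tested, had a log2 difference of 0.040. Macrophages are rich in this enzyme, and of 9 macrophage and Kupffer cell markers with a probe set 7 were tested and all 7 were higher on average with the ligand. The summed signal of the 9 was 11044 to 12529 on ligand arrays and 5064 to 7361 on vehicle arrays. CLEC4F and TIMD4, markers of Kupffer cells, were under the minimum for testing. Both were lower on average with the ligand, with log2 differences of -1.76 and -0.55. The part of these cells in the LIPA value was not tested, and in whole tissue more cells of a type and more RNA per cell cannot be told apart.

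MGLL, the lipase that releases the last fatty acid from monoglyceride, read 9785, 5222 and 5453 on ligand arrays, against 3793, 5123 and 3971 on vehicle arrays. The gap between the groups was narrow, since ligand array 2 lay just above vehicle array 2. The log2 difference was 0.62 ± 0.26 (SE; limma adjusted p = 0.875), but a further MGLL probe set (211026_s_at) had -0.25 ± 0.23 (SE) at adjusted p = 0.937.

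ABHD5, the coactivator that switches PNPLA2 on, read 665, 430 and 382 on ligand arrays and 738, 624 and 788 on vehicle arrays. Only ligand array 1 reached into the vehicle range. The log2 difference was -0.56 ± 0.28 (SE, limma adjusted p = 0.880), and the other 2 of its probe sets that were tested gave -0.058 ± 0.35 and -1.16 ± 0.91 (SE). On the last of these (213935_at) ligand array 1 read 2.81, against 135 and 220 on ligand arrays 2 and 3. A further ABHD5 probe set (232862_at), too dim to be tested, pointed the other way at 0.79. LIPE, hormone-sensitive lipase, read 326, 171 and 239 on ligand arrays and 53.0, 266 and 39.9 on vehicle arrays, where vehicle array 2 stood with the ligand arrays. Its log2 difference was 1.30 ± 0.66 (SE; limma adjusted p = 0.880), against 0.071 ± 0.49 (SE) on its other probe set.

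**Figure D5:**
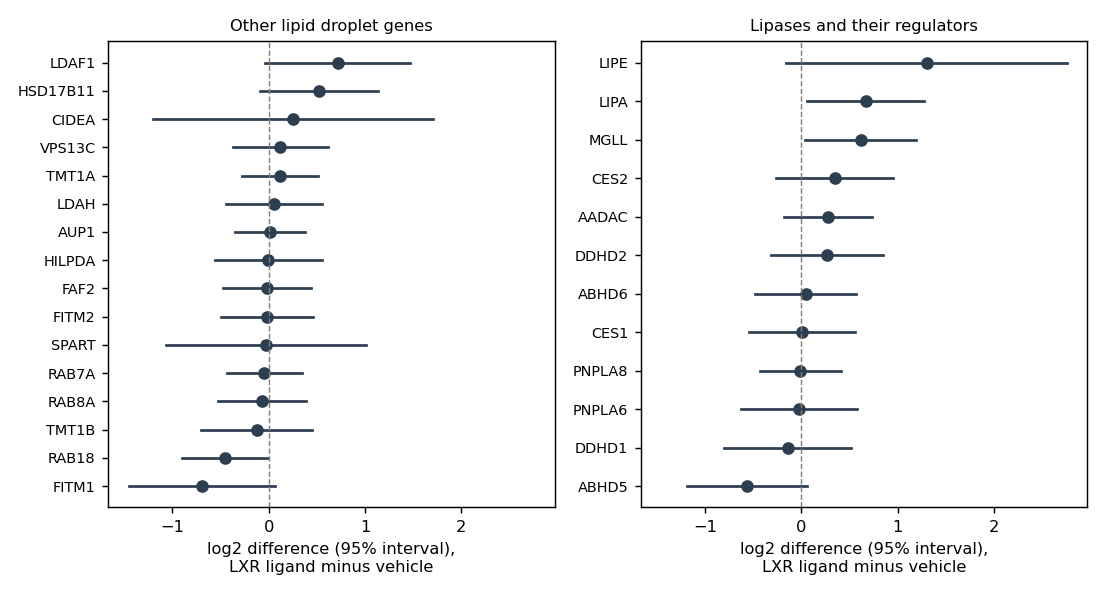
Log2 difference of signal + 16, ligand minus vehicle, with 95% intervals from limma, for the brightest probe set of 16 further droplet genes and of 12 further lipases and regulators. The intervals of RAB18, LIPA and MGLL exclude 0 before adjustment for the 27304 probe sets tested, and none passes after it.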

How the data were processed

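The authors deposited MAS5 signals, an intensity on a linear scale per the submitters' processing notes and the values themselves, with version, scaling target and filters not given in the sources used here; the 2% trimmed mean was 500.1 on every array. Groups came from the array titles. Gene names came from the array's annotation (41097 of 54675 probe sets with 1 symbol, 1801 with several and 11777 with none), with 3 listed symbols updated to current ones.

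Signals were taken as log2(signal + 16), a scale that understates changes of dim probe sets. After leaving out 62 controls, the 27304 probe sets with a mean signal of at least 129, the median of all means, were tested two-sided with lmFit and eBayes with an intensity trend (limma 3.58.1, R 4.3.3), with Benjamini-Hochberg adjustment over all of them and a threshold of 0.05. Each gene was read from the probe set with the highest mean over all arrays. Figures used Python 3.11.15 and matplotlib 3.10.9. All members were named, with the 4 genes of smallest p in each further list, SREBF1 and ABCG1. Members and lists were chosen with earlier results of these data known. The fit was tested on simulated data with the spreads of these probe sets. It called 4.8% of added log2 changes of 1 and 41.8% of changes of 2. Changes of 3 and 4 were added in the same simulations. How often a change standing alone would be called was not tested. Of the markers of other cells that were tested, 6 of 9 were higher with the ligand for stellate cells and fibroblasts, 6 of 8 for endothelium, 1 of 3 for cholangiocytes, 1 of 2 for T and NK cells, 0 of 1 for muscle, 0 of 3 for red blood cells and 4 of 9 for hepatocytes, and 0 passed in limma. Over all tested probe sets 50.3% were higher with the ligand and 0% passed in limma. Detection calls were not used here.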

Additional observations from a re-analysis of the deposited data

How the results depend on the processing

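Results were recomputed with 1 or 64 added to the signal, after quantile normalization or centring of each array on its median, unfiltered or filtered at the 75th percentile, with eBayes untrended or robust, weighting arrays, using the replicate number as a block, at a threshold of 0.10, with a gene's tested probe sets averaged, and leaving out each array. The number of droplet genes called was 0 under all of them, as it was for both further lists; over all probe sets it was 0, or 1 without ligand array 2 or vehicle array 2. Of 134 recomputed values of the 8 genes, 125 kept their sign and 9 did not: PLIN2 was -0.20 as the mean of its probe sets, and leaving out single arrays gave -0.63 to 0.37 for PLIN3, -0.11 to 0.33 for PLIN4 and -0.27 to 0.052 for CIDEC. The median of the 8 genes was -0.45 to -0.030 with 1 array left out, and that of the further droplet genes was -0.082 with probe sets averaged; these shifts follow from the samples or probe sets used. Same-numbered arrays deviated together at r = 0.040, -0.031 and 0.070 over probe sets, and differently numbered arrays at -0.076 to 0.034. Whether the numbers pair the animals cannot be decided from correlations this small. With the replicate block the count of droplet genes called was 0. PLIN4 and CIDEC were too dim for the filter at the 75th percentile. The number of animals, 3 in each group, limits the precision of every value.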
